A study of Oryza sativa with 20 samples.

Results

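The end of a 10 min heat shock in rice (Oryza sativa) shoots was examined, before any recovery. The comparison covers 4 of the 20 libraries of the series, all from wild-type plants 2 weeks old: 2 libraries of heated shoots held in water at 42 °C for 10 min, and 2 libraries of control shoots held in water at 22 °C for 10 min. All plants were inverted in their pots and had their shoots immersed, and each library combined 3 shoots. The plants had grown in a greenhouse at 30 °C, so the controls were themselves moved to cooler water. What heat did to the heated shoots and what 22 °C did to the controls cannot be told apart here. Later groups of the series, set beside these where stated, were sampled after recovery at 30 °C, at 20 min, 1 h, 2 h and 10 h from the start of the bath.

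Plants meet sudden heat with the heat shock response. Heat stress transcription factors, which in unstressed cells are held inactive by chaperones, bind heat shock elements in promoters and switch on chaperone genes. Small heat shock proteins hold unfolding proteins in a soluble state, HSP70 and HSP90 refold or stabilise them, and HSP100 disaggregases pull proteins out of aggregates.

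Transcript levels were given as FPKM (fragments scaled by transcript length and by the size of the library), as 1 value per group. The value of each gene ID was taken from its row with the highest mean FPKM. The change is the log2 ratio of heated to control FPKM after adding 1 to each, which understates the change of low values. With no value per library, no SD, interval or test could be computed here. A gene is called higher or lower where the authors' deposited table gave it a q value below 0.05. Of 37248 gene IDs, 22619 averaged 1 FPKM or more across the 10 groups and were compared. Depth per library is unknown, as FPKM carries no counts. Summed FPKM was 882329 in heated shoots and 846473 in controls, with medians over the compared genes of 7.81 and 8.11 FPKM. In whole shoots, a change in the number of cells of a type and a change in RNA per cell cannot be told apart.

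The files do not pair gene IDs with names, so a gene is called a member of a family only where its ID had been listed under that family from background knowledge, with no annotation to check it against. Markers of green tissue were abundant, those of seed were low, and the 2 listed for root differed. The 7 IDs listed for Rubisco small subunits, Rubisco activase and light-harvesting proteins, the carbon-fixing and light-capturing apparatus of green shoots, stood at 800 to 10792 FPKM in heated shoots and 995 to 11534 FPKM in controls. Of 2 IDs listed as root markers, the lower stood at 0.04 FPKM in heated shoots and 0.05 FPKM in controls. The higher stood at 7.62 and 12.6 FPKM, beside medians over the compared genes of 7.81 and 8.11 FPKM. The 3 IDs listed for seed storage proteins reached at most 2.72 FPKM in heated shoots and 2.88 FPKM in controls.

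At the end of the bath most transcripts differed little between heated and control shoots, while a small set was far higher in heated shoots. No group was sampled before the bath, so changes common to both groups are not seen here. The authors' deposited table called 866 gene IDs, 3.83% of those compared. In heated shoots 350 (1.55%) were higher and 516 (2.28%) were lower. Over all genes compared, the median log2 ratio was -0.03, and 13789 of them, 61.0%, lay within 0.25 of zero on this scale. Rises and falls differed in size. Of the 350 rises that the authors' deposited table called, 310 were at least 2-fold, 182 at least 4-fold, 104 at least 10-fold and 45 at least 100-fold, counting 11 listed at 0 in the controls. Those 11 were put in every class whatever their heated value, which ran from 0.56 to 231 FPKM. For the lowest of them the class says little about the size of the rise. Of the 516 falls that the authors' deposited table called, 363 were at least 2-fold, 53 at least 4-fold, 3 at least 10-fold and none 100-fold. The median log2 ratio was 1.60 for the rises and -1.04 for the falls. The smallest change called was 1.66-fold upwards and 1.60-fold downwards.

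**Figure D1:**
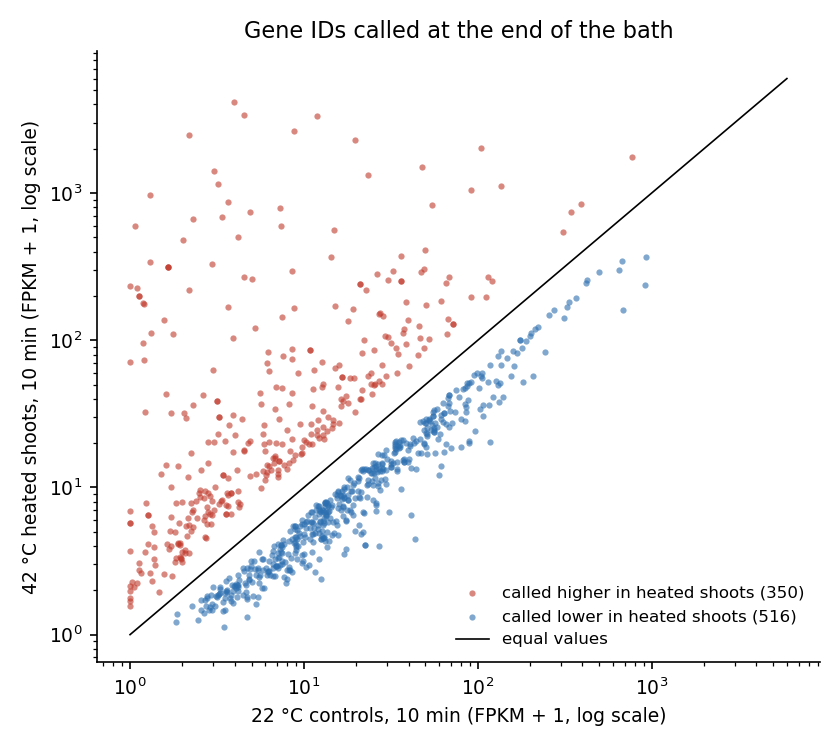
Level in heated shoots at 42 °C (vertical) against controls at 22 °C (horizontal), both as FPKM + 1 on log axes, for each gene ID called at 10 min in the authors' deposited table; each point is a gene ID and the line marks equal values. The 350 rises (red) spread far above the line while the 516 falls (blue) lie in a narrow band below it.

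The balance of rises and falls differed by control level. Among 1144 genes below 1 FPKM in the 10 min controls, the authors' deposited table called 73 (6.38%) higher and 2 (0.175%) lower. Genes at 1 to 5 FPKM were nearly even, with 1.59% higher and 1.22% lower. From 20 to 100 FPKM the shares in the authors' deposited table were 1.28% higher and 3.76% lower, and at 100 FPKM or above 0.873% higher and 4.85% lower. A gene near 0 in the controls has little room to fall, and low genes passed the filter in part through their heated values, so the lowest class had to lean upwards.

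**Figure D2:**
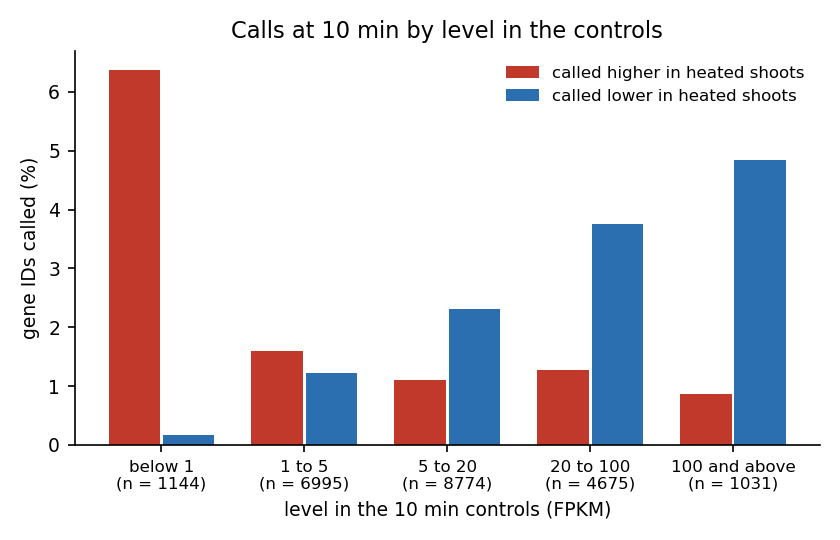
Share of gene IDs called higher (red) and lower (blue) at 10 min in the authors' deposited table, in percent, by their FPKM in the 10 min controls, with the number of gene IDs compared under each class. The share called higher is 6.38% below 1 FPKM and 0.873% from 100 FPKM up, and the share called lower is 0.175% and 4.85% in the same classes.

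The rises changed the make-up of the transcript pool. Counting each row of values once, the called rises made up 7.07% of the summed FPKM of compared genes in heated shoots, against 0.74% in controls. The called falls made up 1.21% in heated shoots and 2.84% in controls. Of the 100 most abundant transcripts in heated shoots, at 962 FPKM or more, 15 were called rises in the authors' deposited table, 11 of them on the heat shock lists below. Of all genes compared 1.55% were called rises, and ranking by the heated value itself favours them. None of the 100 most abundant in controls was a called rise. Among genes at 100 FPKM or above in controls 0.873% were called higher, so few or none could be expected. Members of the heat shock lists accounted for 3.77% of the FPKM of heated shoots among the called rises, and the 306 called rises on none of these lists for 3.30%, against 0.0569% and 0.683% in controls.

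With 1 added to each FPKM, the called rise of highest log2 ratio was OS05G0519700, listed under HSP100 and Clp, the family of disaggregases. It stood at 2489 FPKM in heated shoots and 1.19 FPKM in controls, and the 5 control groups of the series spanned 1.02 to 2.39 FPKM (log2 ratio 10.15, the authors' deposited table gave q as 0.0). OS03G0266900, on the small heat shock protein list, stood at 4126 FPKM in heated shoots and 2.94 FPKM in controls, with 2.46 to 8.42 FPKM over the 5 control groups (log2 ratio 10.03, the authors' deposited table gave q as 0.0). Both heated values lay far above every control group. With 0.1 added in place of 1 these genes took places 4 and 5 of the 350 rises, and with nothing added places 15 and 18, with the 11 rises listed at 0 in controls placed first. With 1 added, the called fall of lowest log2 ratio was OS03G0108300, with 3.43 FPKM in heated shoots and 42.6 FPKM in controls (log2 ratio -3.30, the authors' deposited table gave q as 0.0). Its control groups varied widely, at 10.5 to 67.0 FPKM, but the heated value lay below them all. OS03G0823400 stood at 3.0 FPKM in heated shoots and 26.1 FPKM in controls, with 16.1 to 41.5 FPKM over the control groups (log2 ratio -2.76, the authors' deposited table gave q as 0.0). With nothing added, these genes took places 2 and 4 of the 516 falls. No family is known here for either falling gene. The courses of these falling genes differed. OS03G0108300 was still low at 1 h, at 1.85 FPKM in heated shoots and 48.5 FPKM in controls, and stood at 45.0 and 45.1 FPKM at 10 h. OS03G0823400 had turned by 2 h, to 110.8 FPKM in heated shoots and 16.1 FPKM in controls, and the authors' deposited table called it higher then, at 1 h and at 10 h.

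The 5 heat shock lists together held 61 IDs, of which 56 were compared; the authors' deposited table had 30 as higher and 0 as lower, while 1.55% of all genes were higher and 2.28% lower. Those all-gene shares apply to each list count at 10 min that follows. Only 46 of the 56 would pass the filter on their 5 control groups alone, and the authors' deposited table called 26 of those higher. Small heat shock proteins made the steepest group. Of 16 listed IDs, all compared, the authors' deposited table had 10 as higher and 0 as lower. Their median was 1118 FPKM in heated and 2.51 FPKM in control shoots (median log2 ratio 8.18, against -0.03 for all genes). As a group they held 2.93% of the FPKM in heated shoots and 0.0065% in controls. In 15 of the 16 the heated value lay above all 5 control groups, against 13.3% of all genes compared. The exception stood at 10.7 FPKM in heated shoots and 11.2 FPKM in controls, and its log2 ratio was -0.06 (q = 0.95 in the authors' deposited table).

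Several small heat shock protein IDs lie close together by number on chromosomes 1 and 3. The 3 on chromosome 1 stood at 226, 501 and 686 FPKM in heated shoots, against 0.17, 3.15 and 2.37 FPKM in controls. The 4 of the chromosome 3 group stood at 2240, 4126, 3390 and 3331 FPKM in heated shoots, against 0, 2.94, 3.54 and 10.9 FPKM in controls. Every member of the chromosome 3 group was therefore more abundant after heat than any of the chromosome 1 group. Elsewhere, a member on chromosome 1 outside the group reached 2638 FPKM in heated and 7.76 FPKM in control shoots, and a member on chromosome 2 reached 1414 against 2.06 FPKM. Close paralogues can share reads, so how the total is divided among them is uncertain.

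Some of the steepest rises were not called. The 5 uncalled members with a rise had log2 ratios of 7.60 to 11.13, all at 0.17 FPKM or below in controls. The steepest of the whole comparison was one of them, on chromosome 3, at 2240 FPKM in heated shoots and listed at 0 in controls, with q = 0.6 in the authors' deposited table. Only 10 of the 16 would pass the filter on their 5 control groups alone, and the authors' deposited table called 9 of those 10 higher. Across all genes, 16 stood at 100 FPKM or more in heated shoots and below 0.2 FPKM in controls, of which the authors' deposited table called 6. With controls of 1 to 10 FPKM it called 24 of 26.

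The 3 IDs listed for HSP100 and Clp ATPases all rose: the authors' deposited table called 3 of 3 higher. Beside OS05G0519700, the member on chromosome 3 stood at 370.4 FPKM in heated shoots and 35.0 FPKM in controls (log2 ratio 3.37), and the member on chromosome 2 at 166 and 2.67 FPKM (log2 ratio 5.51). The 3 thus ended at very different levels, and all lay above the range of the control groups, against 13.3% of all genes compared.

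HSP90 chaperones, which hold signalling proteins in a form ready for activation, were split. Of 8 IDs 7 were compared, and the authors' deposited table listed 4 as higher and 0 as lower; the eighth was listed at 0 in every group. A member on chromosome 4 that was nearly silent in controls stood at 962 FPKM in heated shoots and 0.3 FPKM in controls (log2 ratio 9.53). This member would not pass the filter on its 5 control groups alone. The other 6 would, and the authors' deposited table called 3 of those higher. A member on chromosome 8 already abundant in controls stood at 1494 and 46.9 FPKM (log2 ratio 4.96). The other called members, both on chromosome 9, had log2 ratios of 2.18 and 1.72. The 3 uncalled members had log2 ratios of 0.32 to 0.66, with q = 0.1 to 0.71 in the authors' deposited table, and heated values of 33.0 to 72.1 FPKM against 22.4 to 46.5 FPKM in controls.

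HSP70 chaperones ranged from nearly flat to steep, with log2 ratios of -0.01 to 6.88. All 10 IDs were compared, and the authors' deposited table listed 5 as higher and 0 as lower, with a list median log2 ratio of 0.84. The members with the highest levels after heat stood at 2310, 2018 and 1322 FPKM in heated shoots, against 18.6, 103 and 22.5 FPKM in controls. The other called members stood at 252 FPKM in heated and 120 FPKM in control shoots (log2 ratio 1.07), and at 82.9 against 5.18 FPKM (log2 ratio 3.76). The log2 ratios of the 5 uncalled members ran from -0.01 to 0.62. The flattest of them, on chromosome 12, was at 65.7 FPKM in heated shoots and 66.3 FPKM in controls (q = 0.98 in the authors' deposited table).

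Among the heat stress transcription factors, the listed genes ranged from steep rises to ratios near zero. Of 24 IDs 20 were compared, and the authors' deposited table listed 8 as higher and 0 as lower, with a list median log2 ratio of 0.47. Of the 20, 2 share their row of values with another ID. The steepest rises were on chromosome 3, at 600.2 FPKM in heated and 0.07 FPKM in control shoots (log2 ratio 9.13), and on chromosome 6, at 337 against 0.31 FPKM (log2 ratio 8.01). Next came members on chromosomes 8 and 10, at 61.5 against 1.99 FPKM and at 143 against 6.45 FPKM, with log2 ratios of 4.38 and 4.27. The remaining called members had log2 ratios of 0.95 to 2.86. The most abundant member in controls, on chromosome 3, was not called, at 439 FPKM in heated shoots and 333 FPKM in controls (log2 ratio 0.40, q = 0.73 in the authors' deposited table). A further chromosome 3 member stood at 26.0 FPKM in heated shoots and 26.6 FPKM in controls (q = 0.96 in the authors' deposited table), inside its control range of 24.8 to 27.8 FPKM. In all, 11 of the 20 heated values lay above all 5 control groups, against 13.3% of all genes compared, and 1 below, against 21.4%. Only 17 of the 20 would pass the filter on their 5 control groups alone, and the authors' deposited table called 6 of those higher.

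**Figure D3:**
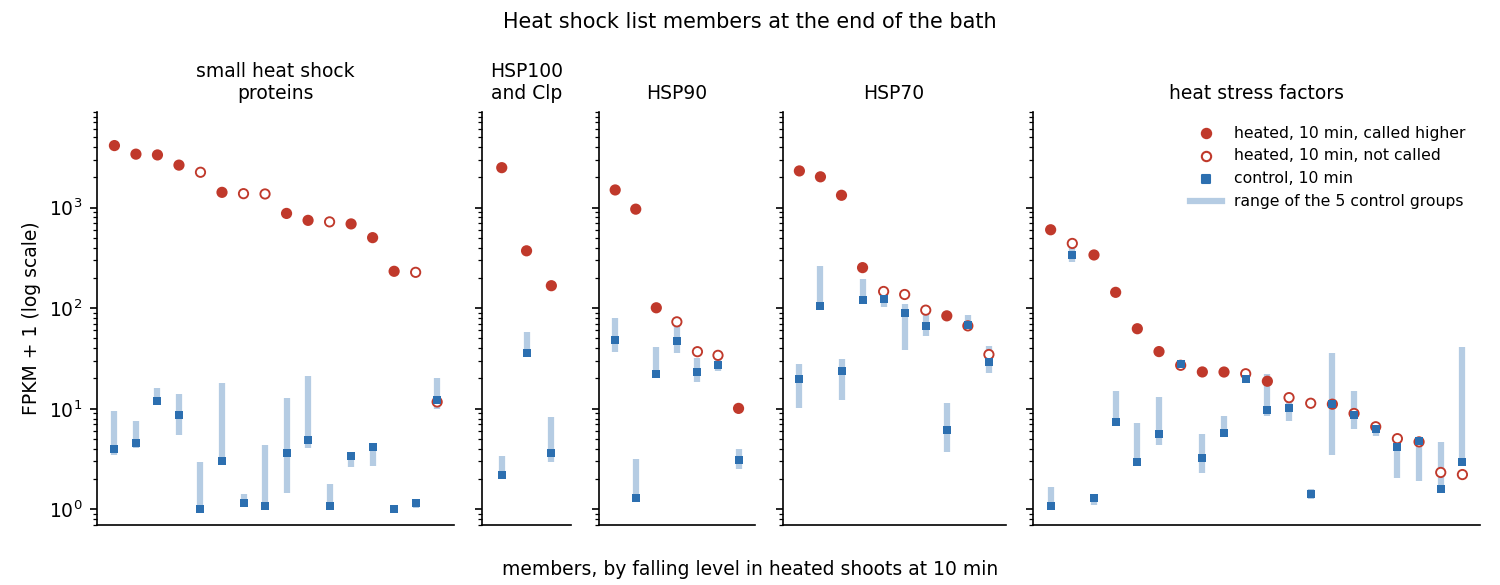
FPKM + 1 on a log axis for each compared member of the 5 heat shock lists, ordered within a list by level in heated shoots at 10 min. Red circles are heated shoots (filled where called higher in the authors' deposited table), blue squares the 10 min controls and pale bars the range of the 5 control groups. Small heat shock proteins lie furthest above their control range, while 12 of 20 heat stress factors were not called.

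Of the other lists, the ID for multiprotein bridging factor 1, a transcriptional coactivator tied to heat tolerance, rose with the chaperones. It stood at 477 FPKM in heated shoots and 1.02 FPKM in controls (log2 ratio 7.89, the authors' deposited table gave q as 0.0). The 5 IDs for DREB factors, activators of cold and drought genes, included no called rise and 1 called fall in the authors' deposited table. That member stood at 18.1 FPKM in heated shoots and 39.9 FPKM in controls (log2 ratio -1.10, with q = 0.03 in the authors' deposited table). Its level in the 5 control groups ran from 0.32 to 500.4 FPKM, so the fall at 10 min was small beside the change among controls. A second DREB member on the same chromosome stood at 55.3 and 45.2 FPKM (q = 0.61 in the authors' deposited table).

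JAZ proteins, repressors of jasmonate signalling, held 1 call in each direction, beside 1.55% of all genes called higher and 2.28% lower. Of 8 IDs the authors' deposited table called 1 higher, at 8.11 FPKM in heated and 1.5 FPKM in control shoots (log2 ratio 1.87, q = 0.01), and 1 lower, at 27.0 against 61.9 FPKM (log2 ratio -1.17, q given as 0.0). Both heated values lay within the range of the 5 control groups, at 0.65 to 35.5 FPKM for the member called higher and 11.3 to 318 FPKM for the other.

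Light harvesting, carbon fixation, the clock and hydrogen peroxide removal were looked at next. None of 7 light-harvesting and Rubisco IDs, 9 circadian clock IDs or 5 ascorbate peroxidase and catalase IDs was called in the authors' deposited table, where 3.83% of all genes were called, so lists of this size could hold few calls or none. Log2 ratios ran from -0.31 to 0.11 in the first list, from -0.42 to 0.36 in the clock list and from -0.05 to 0.20 in the last. A catalase ID on chromosome 3 stood at 1520 FPKM in heated shoots and 1530 FPKM in controls. Without values per library, a missing call does not show that these levels were equal.

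**Figure D4:**
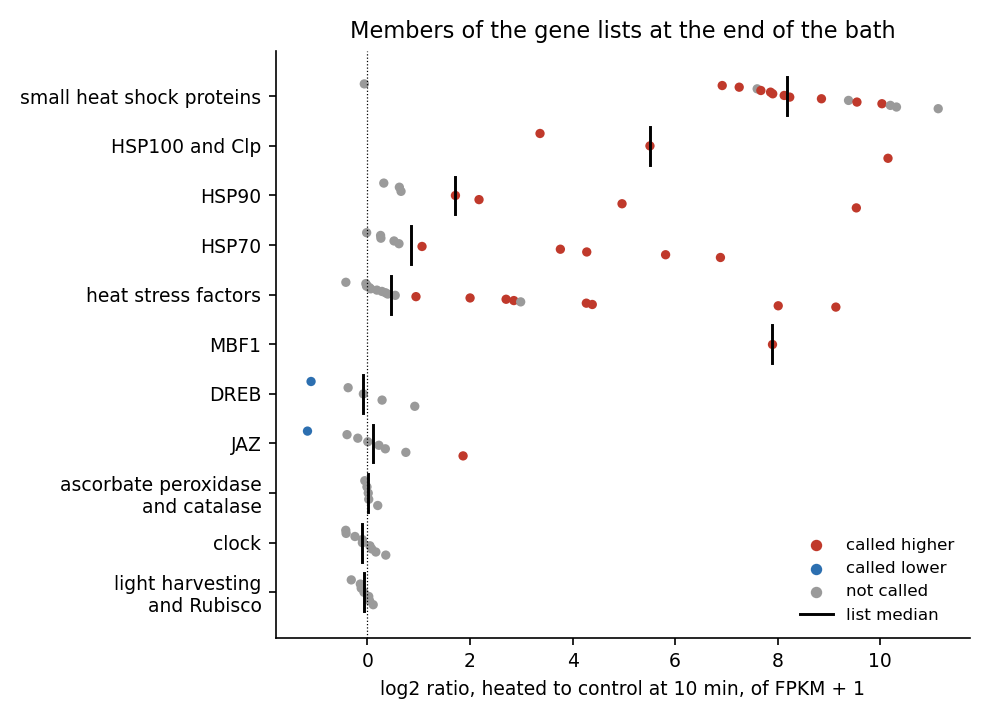
Log2 ratio of heated to control FPKM + 1 at 10 min (horizontal) for each compared member of 11 gene lists, with the list median as a black bar and calls of the authors' deposited table in red (higher) and blue (lower). The small heat shock protein median lies at 8.18 and the HSP70 median at 0.84, and the light-harvesting and Rubisco members lie between -0.31 and 0.11.

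The 5 control groups give a second yardstick, since each holds shoots that were never heated. Among the 350 called rises 285 (81.4%) had a heated value above all 5 control groups, against 13.3% of all genes compared. In 184 of the 285 it was at least 2-fold above the nearest control group and in 64 at least 10-fold. Among the 516 called falls 360 (69.8%) lay below all 5 control groups, against 21.4% of all genes, and in 109 of them by at least 2-fold. The other 65 rises and 156 falls stayed within the range of the controls. For the falls, the 10 min control was the highest of the 5 control groups in 173 genes (33.5%), against 14.4% of all genes, and for the rises it was the lowest in 71 (20.3%), against 17.8%. Because the 10 min controls enter the call itself, these shares lean upwards by construction. Median control levels of the called falls ran 15.9, 13.2, 11.8, 12.4 and 13.6 FPKM from 10 min to 10 h in sampling order.

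Followed through recovery, each time against its own controls, most early rises stood higher still at a later time. At 20 min from the start of the bath, 247 of the 350 were higher in the authors' deposited table (70.6%, against 3.43% of all genes), at 1 h 301 (86.0%, against 12%), at 2 h 232 (66.3%, against 11.9%) and at 10 h 20 (5.71%, against 2.86%). From 10 min to 10 h in sampling order, their median log2 ratios were 1.60, 1.86, 3.53, 2.11 and -0.01. The heated group with the highest FPKM was that of 1 h for 246 of the 350 (70.3%), 20 min for 48 and 10 min itself for 39. The 15 called higher at all 5 times in the authors' deposited table had a median of 329 FPKM in heated and 1.98 FPKM in control shoots at 10 min, and of 20.4 against 2.24 FPKM at 10 h. No all-gene share is at hand for the group of highest FPKM or for calls at all 5 times.

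Falls held their direction less evenly. Of the 516, the authors' deposited table called 310 lower at 20 min (60.1%, against 6.25% of all genes), 242 at 1 h (46.9%, against 8.74%), 137 at 2 h (26.6%, against 6.99%) and 18 at 10 h (3.49%, against 1.79%). Of the falls 93 (18.0%) were called higher at 1 h or 2 h, close to the 16.5% of all genes compared. In these the median was 7.27 FPKM in heated and 21.0 FPKM in control shoots at 10 min, and 34.7 against 12.7 FPKM at 2 h. No later call in either direction followed in 77 of the falls (14.9%) and in 17 of the rises (4.86%). The share of all genes without a later call is not at hand. A missing call can also go with a large difference. An HSP90 member on chromosome 8 had no call at 1 h, at 10489 FPKM in heated shoots and 49.0 FPKM in controls.

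**Figure D5:**
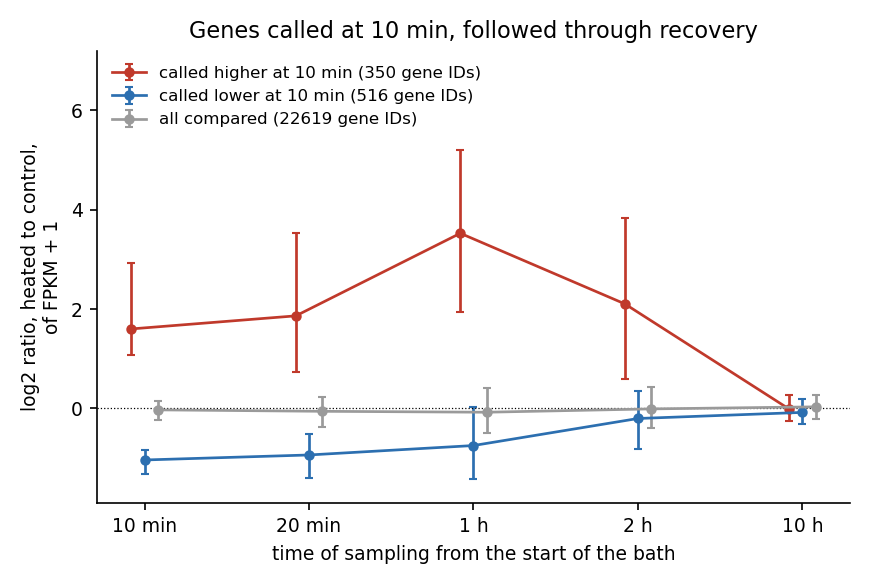
Median log2 ratio of heated to control FPKM + 1 at the 5 sampling times for gene IDs called higher (red) or lower (blue) at 10 min in the authors' deposited table and for all compared gene IDs (grey); bars span the quartiles over gene IDs, not replicates, and the time axis is not to scale. The early rises have their highest median, 3.53, at 1 h, and both sets lie near zero at 10 h.

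In sampling order, median log2 ratios were 8.18, 9.40, 10.45, 9.13 and 1.38 for small heat shock proteins. For HSP70 they were 0.84, 1.89, 4.44, 3.24 and -0.07, and for HSP90 1.72, 3.55, 4.39, 3.22 and -0.02. Each of these lists had a lower median at the end of the bath than at 20 min, 1 h or 2 h, and its highest median at 1 h. Of the 20 heat stress factors the authors' deposited table had 8 as higher in the 10 min groups, 10 in those of 20 min, 14 in those of 1 h, 8 in those of 2 h and 0 in those of 10 h, beside 1.55%, 3.43%, 12%, 11.9% and 2.86% of all genes. DREB members had median log2 ratios of -0.08 at 10 min, -0.40 at 20 min and 5.30 at 1 h. At 1 h the authors' deposited table called all 5 higher, beside 12% of all genes. The member called lower at 10 min stood at 18.1, 322 and 210 FPKM in heated shoots at 10 min, 20 min and 1 h. Its controls stood at 39.9, 500 and 4.36 FPKM, so its ratio moved with the controls as well. For JAZ repressors the authors' deposited table called 5 of 8 lower at 20 min, beside 6.25% of all genes, and 6 of 8 higher at 1 h, beside 12%. In each of these 5 the control level was higher at 20 min than at 10 min. The member called lower at 10 min went from 61.9 to 318 FPKM in controls and from 27.0 to 46.4 FPKM in heated shoots. In another of the 5 the heated level fell, from 7.18 to 6.43 FPKM. None of these differences between times could be tested.

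Several chaperone and factor genes without a call at the end of the bath stood far above their controls by 1 h. An HSP70 member on chromosome 2 had 94.5 FPKM in heated shoots and 65.7 FPKM in controls at 10 min, and 2116 and 51.5 FPKM at 1 h. An HSP90 member on chromosome 6 had 72.1 and 46.5 FPKM at 10 min, and 735 and 36.2 FPKM at 1 h. A heat stress factor on chromosome 2 had 10.1 and 10.2 FPKM at 10 min, and 632 and 28.9 FPKM at 1 h. The authors' deposited table called all 3 higher at 1 h. These genes were chosen after their values were seen, as examples of members called later but not at 10 min.

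By ID number, called genes stood next to a gene called the same way more often than other genes did, though most had no such neighbour. In the rice naming scheme the ID number follows position along a chromosome. With each row of values counted once, 51 of 336 called rises (15.2%) had a called rise as nearest compared neighbour on at least 1 side, against 2.94% of the other genes. For falls it was 76 of 510 (14.9%), against 4.49% of the other genes. Overlapping or neighbouring genes may share reads, and no source used here says whether counting used strand. The longest run of rises, 5 genes on chromosome 3, had 3 members on the small heat shock protein list. Going up by ID number they stood at 56.0, 4126, 3390, 94.8 and 3331 FPKM in heated shoots, against 22.4, 2.94, 3.54, 0.19 and 10.9 FPKM in controls. The longest runs of falls were 4 genes on chromosome 6, at 2.62 to 5.49 FPKM in heated shoots against 10.1 to 40.5 FPKM in controls, and 4 genes on chromosome 7, at 2.26 to 56.4 against 8.12 to 155 FPKM. By chromosome, called rises ran from 0.728% of compared rows on chromosome 10 to 2.38% on chromosome 3, and called falls from 1.81% on chromosome 9 to 2.82% on chromosomes 8 and 10.

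The threshold itself was soft, because q values were deposited with 2 decimals. Just inside it, the authors' deposited table gave a q of 0.04 to 69 genes, 16 of which rose and 53 fell, with median log2 ratios of 0.87 and -0.80. Just outside, 71 genes had a q of 0.05, with 17 ratios above and 54 below zero and medians of 0.81 and -0.82. No call in the authors' deposited table was given to 35 genes with a log2 ratio of at least 3, including 5 on the heat shock lists. The q values of the 35 ran from 0.05 to 0.75, so they overlap the genes just outside the threshold. Their median was 62.2 FPKM in heated and 0.1 FPKM in control shoots at 10 min, and 72.4 against 0.42 FPKM at 20 min. In all 35 the heated value lay above all 5 control groups, against 13.3% of all genes compared, and 28 were below 1 FPKM in the 10 min controls. Choosing genes by their ratio to the 10 min controls favours both by construction.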

How the data were processed

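Libraries were made from total RNA of shoots with 2 biological replicates per group, as the labels' protocols state. cutadapt, TopHat2, Cufflinks and the build IRGSP-1.0 are named, without versions, per the submitters' processing notes. The authors deposited 1 FPKM value per group, so replicates could not be compared here and the planned limma model was not run. Per the file headers, the deposited table also holds the authors' log2 fold change and a q-value with 2 decimals for each time; no source used here gives the test behind it. For the 8490 gene IDs with more than 1 row, only the row of highest mean FPKM entered (python 3.11.15, pandas 2.3.3). Where both groups had at least 1 FPKM, gene IDs with over 0.1 between the authors' log2 value and the ratio of FPKM were left out; these were 85, of which 4 would have been called. Gene IDs sharing a row with another ID numbered 2886 of 22619. Some 0 values may be estimates that failed. The calculation was checked on simulated data. Alternatives changed the pseudocount, filter, q threshold, scaling, fold source and treatment of repeated rows.

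The reference table of gene names used here (ASM3414082v1) matched 0 of the gene IDs, so no sequence is shown. Of 56 gene lists, 13 carried IDs written from background knowledge and 43 that needed descriptions were not formed. The comparison, lists and rules were chosen with earlier results of these data known. The planned rule named the 12 largest called rises and falls, by log2 ratio with 1 added; without gene names it was held to 2 rising and 2 falling IDs, and other list members are described by list and by the chromosome in their ID.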

Additional observations from a re-analysis of the deposited data

Results flagged for a closer look

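Of the 516 gene IDs that fell at 10 min, the authors' deposited table called 60 higher at 1 h. That is 11.6% of the falls, close to the 12% of all genes compared that were called higher at 1 h. In the 60, heated shoots had a median of 11.9 FPKM and controls 25.4 FPKM at 10 min, and 58.5 and 15.5 FPKM at 1 h. The opposite turn, higher at 10 min and lower at 1 h, was seen in 1 of 350 gene IDs in the authors' deposited table. That is 0.286% of the rises, against 8.74% of all genes compared that were called lower at 1 h. Each turn compares effects at different times, and the difference between the times was not tested.

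Values left out of the comparisons also held calls. Gene IDs with a mean below 1 FPKM numbered 14544. Of these the authors' deposited table called 111 higher and 17 lower at 10 min, beside 350 and 516 of the 22619 compared. The 111 stood at a median of 0.72 FPKM in heated shoots against 0 in controls. Of the 350 gene IDs called higher, 103 stood on further rows, and 23 of their 135 further rows were themselves called higher and 0 lower in the authors' deposited table. Of the 516 gene IDs called lower, 140 stood on further rows, and of those 187 rows the authors' deposited table called 12 higher and 4 lower. Only 49 of the 135 rows and 57 of the 187 averaged 1 FPKM or more. The share of calls over all further rows is not at hand.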

How the results depend on the processing

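No paired analysis was possible because the deposited table has 1 column per group and no value per library; leaving out a library was not possible either. Of 12 alternatives 2 were chosen after seeing the data: keeping the genes whose deposited fold departs, and counting a q printed as 0.05 as called. Counts within 1.5 times and log2 values within 0.1 were taken as unmoved, so that 294 values stayed, 30 moved and 0 reversed. Part of this tally was fixed in advance. A change of q threshold cannot move a median or a ratio, a pseudocount cannot move a count of calls, and a filter cannot move the ratio of a gene. The number that stayed is therefore no measure of robustness. With q below 0.01 the authors' deposited table called 475 genes, 236 of them higher and 239 lower; falls shared with 20 min, 1 h, 2 h and 10 h then numbered 147, 120, 61 and 7, and rises shared with 10 h numbered 13. The filter on control groups alone gave 11 rises shared with 10 h, and list medians of 8.01 for small heat shock proteins, 1.19 for HSP90 and 0.35 for heat stress factors. A pseudocount of 0.1 gave medians of 9.53 for small heat shock proteins, 5.91 for HSP100 and Clp, 2.08 for HSP90 and 0.71 for heat stress factors, and the authors' deposited log2 fold change gave 9.66, 5.96, 2.14 and 0.71. No filter gave 1.19 for HSP90 and 0.32 for heat stress factors, and a mean of at least 5 FPKM gave 0.95 for heat stress factors. Added constants, absent members and control levels enter these medians by construction. Depth limits low genes, but is unknown here.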
